A study of Mus musculus with 9 samples.

Results

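The natriuretic peptide system was followed in the cardiac transcriptome through 8 genes, chosen by name with earlier results of these data known. These were the peptide genes Nppa, Nppb and Nppc, the processing enzymes Corin and Furin, and the receptors Npr1, Npr2 and Npr3. They are 8 of the 41710 gene names for which reads were deposited. Of these 8 genes, 7 had enough reads to be among the 15504 genes tested, and Nppc did not. Hearts came from male mice of the FVB/N strain at an age of 8 months, with n = 3 mice in each of 3 groups. Tg-RKIP mice carry a transgene for RKIP, the RAF kinase inhibitor protein encoded by Pebp1, which in the study is expressed in the myocardium under the alpha-MHC promoter, and the submitters describe signs of heart failure in them. Tg-GRK2 mice carry a transgene for GRK2, a kinase that desensitises G-protein-coupled receptors, whose promoter is not given in the sources used here. The third group, FVB, is non-transgenic. No treatment was given to any group.

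Natriuretic peptides are hormones by which the heart answers stretch and volume load. ANP (from Nppa) and BNP (from Nppb) are made by cardiomyocytes as precursors. The atria make most of the ANP of a healthy adult heart, and both genes are re-expressed in the ventricle under load, which makes them textbook markers of heart failure. Corin, a protease in the cardiomyocyte membrane, cuts the ANP precursor, and furin, a convertase of the secretory pathway, cuts the precursors of BNP and CNP (from Nppc). The mature peptides bind receptors that are guanylyl cyclases and raise cGMP: Npr1 (GC-A) for ANP and BNP, and Npr2 (GC-B) for CNP. Npr3 is the clearance receptor, which takes up all these peptides and has no cyclase.

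The libraries held 25458108 to 33447654 reads on transcripts. Levels are given in TPM, a transcript abundance corrected for transcript length whose sum is the same for every library, as mean ± SD (n = 3 libraries). Log2 fold changes come from counts scaled by TMM, which aligns the bulk of the genes between libraries, and a gene was called at an adjusted p under 0.05 (quasi-likelihood test of edgeR, Benjamini-Hochberg adjustment over the 15504 genes). Libraries of a group differed little (biological coefficient of variation 2.86%), so that small differences passed. The adjusted p-values of edgeR rest on this small spread, and whether it holds the full spread between mice was not tested. Replicate 1 of the Tg-GRK2-labelled libraries stood apart in the mean over genes, with a chi-square per degree of freedom of 22.1 and 27.3 against its own group, where the other pairs within a group had 1.74 to 2.82. The median over genes did not stand apart. It was 1.38 and 1.43 times the sampling noise for these 2 pairs, where pairs within a group ranged from 1.37 to 1.53. Pebp1 was at 16199 ± 208 TPM in Tg-RKIP, 320 ± 5.60 in the Tg-GRK2-labelled libraries and 325 ± 4.54 in FVB. Grk2 was at 27.3 ± 2.90 TPM in the Tg-GRK2-labelled libraries and 27.1 ± 1.05 in FVB (log2 fold change 0.054, SE 0.038, adjusted p = 0.354), so the targeted gene was not called higher there, and these libraries are named by their label throughout. Mitochondrial genes took 11.7% ± 0.156 of the reads in Tg-RKIP, 22.6% ± 0.299 in the Tg-GRK2-labelled libraries and 23.1% ± 0.158 in FVB. Without TMM, scaling by library size alone moved the median gene by 0.38 on the log2 scale between Tg-RKIP and FVB, and TPM moved it by 0.43, against 0.01 with TMM.

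In Tg-RKIP hearts, the peptide genes Nppa and Nppb rose several-fold while Corin was 2.25-fold lower than in FVB. The receptors and Furin moved by at most 1.23-fold on TMM-normalized counts. Of the 7 members tested, 4 were called higher (Nppa, Nppb, Npr1 and Npr3) and 3 lower (Corin, Furin and Npr2). In this comparison 73.9% of all genes tested were called, 36.8% higher and 37.1% lower, so being called sets no member apart. With library size alone 9709 genes were called higher and 2650 lower, against 5709 and 5751 with TMM. The size of the change is less common: 10.2% of genes were called higher by at least 1 on the log2 scale, as Nppa and Nppb were, and 6.12% were called lower by at least 1, as Corin was.

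**Figure D1:**
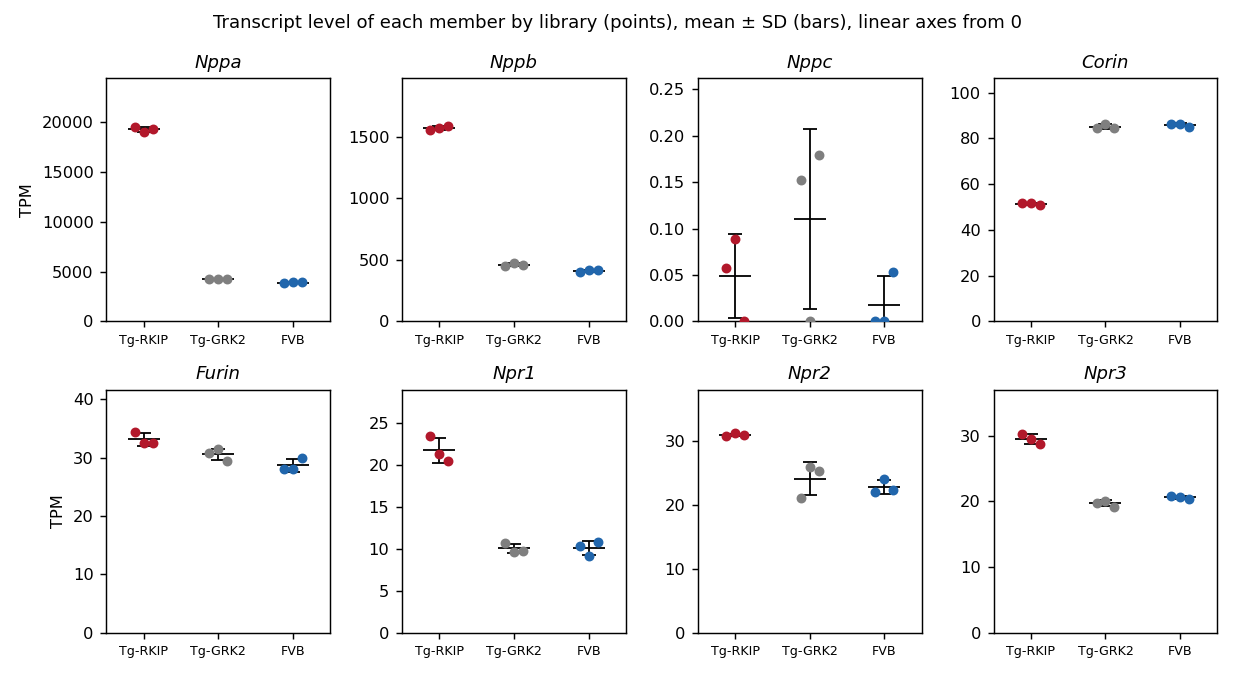
Transcript level (TPM, linear axes from 0) of each of the 8 members in each of the 9 libraries (points), with the mean and SD of each group (n = 3). Nppa, Nppb, Npr1, Npr2, Npr3 and Furin have their highest libraries in Tg-RKIP, Corin its lowest, and Nppc is near 0 in all libraries.

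The peptides share a ring of 17 amino acids closed by a pair of cysteines, the part of the hormone that meets the receptor. The stretches of messenger RNA that code for the ring are shown for Nppb and Nppc, one abundant and one near 0 reads in these hearts, as the sequence that the hormones have in common. They were read from the GENCODE M21 transcripts that carry the identifiers and lengths of the deposited ones. The capitals mark the codons of the cysteines.
Nppb: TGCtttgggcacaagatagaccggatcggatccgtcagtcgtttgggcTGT
Nppc: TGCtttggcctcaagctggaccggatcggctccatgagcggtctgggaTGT
Of the 51 bases, Nppb and Nppc share 40.

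Nppa, the precursor gene of ANP, was at 19472, 18933 and 19252 TPM in the Tg-RKIP libraries. It was at 4262, 4256 and 4242 TPM in the Tg-GRK2-labelled libraries and at 3831, 3929 and 3934 TPM in FVB. The Tg-RKIP libraries lay far above all others, and the Tg-GRK2-labelled libraries lay just above FVB without overlap. The mean was 19219 ± 271 TPM in Tg-RKIP and 3898 ± 58.2 in FVB, a ratio of 4.93, which is the change on the TPM scale. On TMM-normalized counts Nppa rose by 1.88 on the log2 scale (SE 0.015, adjusted p = 5.52e-28), a fold change of 3.69. Reads of Nppa took 1.08% ± 0.015 of a Tg-RKIP library and 0.225% ± 0.004 of an FVB library. By TPM, Nppa ranked 5th of all genes in Tg-RKIP, 28th in the Tg-GRK2-labelled libraries and 30th in FVB. The fold change of 487 other genes was higher.

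Nppb, the precursor gene of BNP, was at 1555, 1570 and 1584 TPM in Tg-RKIP. It was at 452, 475 and 456 TPM in the Tg-GRK2-labelled libraries and at 401, 415 and 418 TPM in FVB. As for Nppa, the 3 Tg-RKIP libraries stood apart and the other groups lay close together without overlapping. The TPM mean was 1570 ± 14.4 in Tg-RKIP and 411 ± 9.12 in FVB, a ratio of 3.82. On TMM-normalized counts Nppb rose by 1.51 on the log2 scale (SE 0.022, adjusted p = 1.38e-23), a fold change of 2.86. Its rank by TPM was 66th in Tg-RKIP and 271st in FVB.

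Nppc, the precursor gene of CNP, which is a peptide of endothelium and growing bone, had 1, 2 and 0 reads in Tg-RKIP, 3, 0 and 4 in the Tg-GRK2-labelled libraries and 0, 0 and 1 in FVB. Its transcripts were thus at or near the floor of 3 reads per library, and a difference was not detectable at this depth.

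The 2 cardiac peptides did not rise by the same factor. The ratio of Nppa to Nppb within a library, which no scaling of libraries can change, was 12.5, 12.1 and 12.2 in Tg-RKIP, 9.43, 8.97 and 9.30 in the Tg-GRK2-labelled libraries and 9.55, 9.46 and 9.41 in FVB. The Tg-RKIP ratio was 1.29-fold that of FVB (log2 difference 0.37) and the groups did not overlap. The exact two-sided permutation test over libraries gave p = 0.1, the smallest p that 3 against 3 allows (0.167 adjusted over the 15 ratio tests).

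Nppa and Nppb are neighbours on chromosome 4, at chr4:148085179-148086536 and chr4:148070245-148071662, both on the plus strand, with 13517 bases between them. These are the deposited coordinates, and the submitters' processing notes name the build GRCm39. Each gene has 1 transcript in the deposited tables. Tested genes within 100 kb of them are given next, in Tg-RKIP against FVB. Gm13054, which runs antisense through Nppa, rose by 1.58 (SE 0.116, adjusted p = 5.47e-11). As the sources do not state whether strand was used in counting, reads of Gm13054 and of Nppa cannot be told apart. Among the other neighbours, Mfn2, which codes for a mitochondrial fusion protein, fell by 0.42 (SE 0.016, adjusted p = 9.26e-16) with TMM, but its log2 fold change was -0.04 with library size alone and 0.01 in log2(TPM + 0.1). 2510039O18Rik rose by 0.21 (adjusted p = 8.41e-05) and Plod1, a collagen lysyl hydroxylase, by 0.10 (adjusted p = 0.0054). The chloride transporter gene Clcn6 (log2 fold change 0.06, adjusted p = 0.388) and Agtrap, which codes for a partner of the angiotensin receptor (0.04, adjusted p = 0.338), were not called. Apart from the antisense gene, none of these neighbours moved as far as the peptide genes.

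The 250 bases before the start sites of both genes are shown because the genes rose together. They come from the RefSeq annotation of GRCm38.p6, another build than that of the deposited coordinates, and lie on the plus strand at chr4:148000472-148000721 for Nppa and chr4:147985650-147985899 for Nppb. The capitals mark short motifs found by their letters.
Nppa: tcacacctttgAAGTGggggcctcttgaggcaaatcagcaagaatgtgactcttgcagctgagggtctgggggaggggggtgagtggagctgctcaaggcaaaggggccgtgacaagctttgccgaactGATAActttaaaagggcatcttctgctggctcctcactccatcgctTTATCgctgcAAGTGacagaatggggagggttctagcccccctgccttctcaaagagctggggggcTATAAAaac
Nppb: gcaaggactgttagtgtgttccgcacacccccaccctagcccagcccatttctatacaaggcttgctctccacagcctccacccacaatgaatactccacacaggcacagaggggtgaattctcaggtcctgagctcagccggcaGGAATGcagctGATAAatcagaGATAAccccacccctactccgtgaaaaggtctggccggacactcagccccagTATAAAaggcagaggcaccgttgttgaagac
The GATA letters GATAA, searched on both strands, occur at 2 positions in each window, beginning 121 and 75 bases before the start of Nppa and 94 and 83 bases before that of Nppb, and 22.6% of the 32851 promoter windows of the table hold them at least once. AAGTG, letters bound by NKX2-5, occurs at 2 positions before Nppa and at 0 before Nppb (40.7% of windows). CATTCC, the MCAT letters bound by TEAD factors, occurs at 1 position before Nppb, on the reverse strand (12.6% of windows). TATAAA, searched on the forward strand, is present in both (7.59% of windows). The AP-1 letters TGANTCA (6.75% of windows) and the CArG box, searched as CCWWWWWWGG with W for A or T (1.47%), were not found in these windows. Only exact matches were searched, so a site that departs from these letters would be missed. No listed motif overlaps another in these sequences, and a match is a description of letters, not of binding.

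Most of the transcription factors known to act on these promoters were lower in Tg-RKIP with TMM. Of the 20 on the list, 4 were called higher and 13 lower in Tg-RKIP, with a median log2 fold change of -0.22 against 0.01 for all genes tested. With library size alone the list counted 11 higher and 4 lower, and relative to the median gene of each scaling its median was -0.23 with TMM, library size and TPM alike. With TMM, the largest changes were those of Myocd (myocardin, the SRF coactivator), which was 2.82-fold lower (adjusted p = 1.9e-18), Mef2a, which fell by 1.00 (SE 0.021, adjusted p = 1.4e-20), Hopx, which fell by 0.82 (SE 0.019, adjusted p = 8.94e-20), and Tead1, which fell by 0.69 (SE 0.023, adjusted p = 5.37e-17). These 4 were lower under every scaling run. Among the factors called higher, Nfatc4 rose by 0.69 (SE 0.090, adjusted p = 5.42e-07) and Nkx2-5 by 0.46 (SE 0.036, adjusted p = 1.6e-10). The order depends on the scaling: with library size alone Nfatc4 (1.07) and Nkx2-5 (0.84) moved further than Mef2a (-0.63), Hopx (-0.45) and Tead1 (-0.32).

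Other genes of the cardiac stress or fetal programme rose with the peptides. Of 12 on the list, 9 were called higher and 2 lower, with a median log2 fold change of 0.95. Gdf15, a stress cytokine, rose by 3.68 (SE 0.092), Uchl1, a ubiquitin hydrolase, by 3.00 (SE 0.045) and Acta1, skeletal alpha-actin, by 2.66 (SE 0.019). Myh6, the adult alpha-myosin heavy chain whose promoter drives the transgene, fell by 1.35 (SE 0.010). The adjusted p of these 4 genes was at most 2.47e-19. In log2(TPM + 0.1) the log2 fold change of Myh6 was -0.19.

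Hearts were pulverised, with no separation of chambers described, and the atria are rich in Nppa, so atrial markers stand beside this result. Of 12 atrial markers other than Nppa, 5 were called higher and 7 lower in Tg-RKIP (median log2 fold change -0.30, and -0.31 relative to the median gene under library size or TPM). The atrial myosin light chain Myl7 fell by 1.28 (SE 0.040, adjusted p = 1.44e-17), the atrial connexin Gja5 by 1.33 (SE 0.065, adjusted p = 4.08e-14) and the channel gene Kcnj3 by 1.53 (SE 0.026, adjusted p = 2.76e-22), while Nr2f2, a factor of atrial and venous cells, rose by 0.99 (SE 0.047, adjusted p = 2.23e-14). The summed atrial level was 5055 to 5214 TPM in Tg-RKIP and 3043 to 3132 in FVB, most of it from Pam and Myl4. The log2 fold change of Pam was 0.16 with TMM and 0.98 in log2(TPM + 0.1). Of 8 ventricular markers 0 were called higher and 6 lower, Myl2 and Myl3 by 0.83 and 0.73, with summed levels of 16413 to 16917 TPM in Tg-RKIP and 21203 to 21788 in FVB. With library size alone 2 of the ventricular markers were called higher and 5 lower. In bulk RNA, more cells of a type and more RNA per cell cannot be told apart, and the part of chamber composition in the rise of Nppa and Nppb was not tested.

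Corin, the protease that activates the ANP precursor, was at 51.9, 51.6 and 50.9 TPM in Tg-RKIP. It was at 84.4, 86.5 and 84.6 TPM in the Tg-GRK2-labelled libraries and at 86.5, 86.4 and 85.2 TPM in FVB. The Tg-RKIP libraries were far below the rest, which overlapped each other. On TMM-normalized counts Corin fell by 1.17 on the log2 scale (SE 0.019, adjusted p = 9.59e-23), and 672 of the 15504 genes fell further. In TPM its mean was 51.5 ± 0.496 against 86.0 ± 0.713. It stayed lower under each scaling, by 0.80 with library size alone and by 0.74 with log2(TPM + 0.1).

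Nppa and Corin thus moved in opposite directions in the same hearts. The ratio of Nppa to Corin in TPM was 376, 367 and 378 in Tg-RKIP, 50.5, 49.2 and 50.1 in the Tg-GRK2-labelled libraries and 44.3, 45.5 and 46.2 in FVB. It was 8.24-fold that of FVB in Tg-RKIP, with no overlap (exact two-sided permutation p = 0.1, the smallest possible, adjusted p = 0.167).

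**Figure D2:**
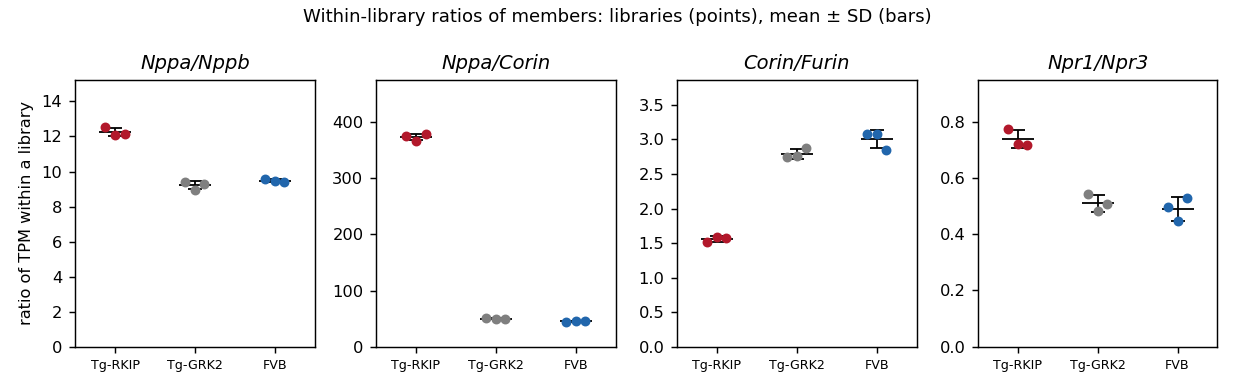
Ratio of the TPM of a pair of members within each library (points; linear axes from 0), with the mean and SD of each group (n = 3). Nppa/Corin is near 373 in Tg-RKIP and at most 50.5 in every other library, Corin/Furin is lower in Tg-RKIP, and Nppa/Nppb and Npr1/Npr3 are higher there.

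Corin lies on chromosome 5 on the minus strand, at chr5:72457368-72661816 in the deposited coordinates. Of its 7 transcripts, Corin_3 and Corin_4 carried nearly all reads. They start from different first exons, of 103 and 327 bases, and share 3075 coding bases, so that they code for proteins of 1047 and 1113 codons that differ at the N-terminal end, which in corin lies in the cytoplasm. The coding part of each first exon is shown because reads moved between them, with the start codon in capitals, from the GENCODE M21 transcripts of the same identifier and length.
Corin_3: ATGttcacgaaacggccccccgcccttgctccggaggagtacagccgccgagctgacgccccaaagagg
Corin_4: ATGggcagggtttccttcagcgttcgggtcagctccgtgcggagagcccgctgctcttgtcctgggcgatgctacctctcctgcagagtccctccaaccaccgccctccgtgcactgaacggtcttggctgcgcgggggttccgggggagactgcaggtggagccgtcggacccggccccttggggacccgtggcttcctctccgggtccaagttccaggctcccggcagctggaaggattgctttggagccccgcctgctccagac

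Corin_4, the form with the longer first exon, had 417, 826 and 681 reads in Tg-RKIP, 3082, 2775 and 3386 in the Tg-GRK2-labelled libraries and 2251, 3053 and 2542 in FVB. Its share of the reads of Corin was 14.5% ± 3.69 in Tg-RKIP, 39.4% ± 1.80 in the Tg-GRK2-labelled libraries and 34.1% ± 3.11 in FVB. Against its own gene, Corin_4 fell by a further 1.24 on the log2 scale in Tg-RKIP (adjusted p = 2.58e-05 over 28633 transcripts, edgeR's test of transcripts against their gene). Corin_3 was not called in that test (log2 difference 0.38, adjusted p = 0.0723). Corin_3 went from 57.3 ± 2.86 TPM in FVB to 44.2 ± 2.26 in Tg-RKIP, and Corin_4 from 28.3 ± 2.53 to 7.14 ± 1.77, a level 3.97-fold lower. The test was chosen after the transcript values had been seen.

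Transcripts of Npr2 and Npr3 also changed their share. Of 15 member transcripts tested against their gene, 4 were called in Tg-RKIP against FVB, where 7.95% of all such transcripts were called. The receptor Npr2 is annotated with a full-length form, Npr2_7 of 3660 bases, and a shorter coding form, Npr2_10 of 2106 bases, whose start lies downstream. Npr2_10 had 672, 888 and 632 reads in Tg-RKIP and 271, 302 and 252 in FVB (against its gene, log2 difference 1.15, adjusted p = 0.0168). Npr2_7 had 606, 767 and 577 reads in Tg-RKIP and 782, 879 and 896 in FVB (-0.65, adjusted p = 0.0455). The non-coding Npr3_1 had 0 reads in each Tg-RKIP library and 81, 62 and 58 in FVB, at least 28.6-fold lower when the floor of 3 reads per library stands for 0 (adjusted p = 4.14e-06 against its gene). Npr1_1, an Npr1 transcript with a retained intron, had 56, 101 and 85 reads in Tg-RKIP, 14, 0 and 14 in FVB and 0, 7 and 0 in the Tg-GRK2-labelled libraries, and was called only against the latter (adjusted p = 0.0431).

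A shift towards transcripts with a later start was present over the whole transcriptome. Over all genes, the 5122 tested transcripts that start at least 500 bases downstream in their gene and end within 500 bases of its end had a median of 0.23 on the log2 scale against their gene in Tg-RKIP relative to FVB, and the 23511 others had -0.07. In the Tg-GRK2-labelled libraries these medians were -0.07 and 0.00. How reads shared by several transcripts were divided is not given in the sources used here. In Corin, on the minus strand, the form that lost share, Corin_4, starts downstream of Corin_3 (at 72661551 against 72661816). The part of the later starts and of the division of reads in the transcript shares of Corin and the receptors was not tested.

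**Figure D3:**
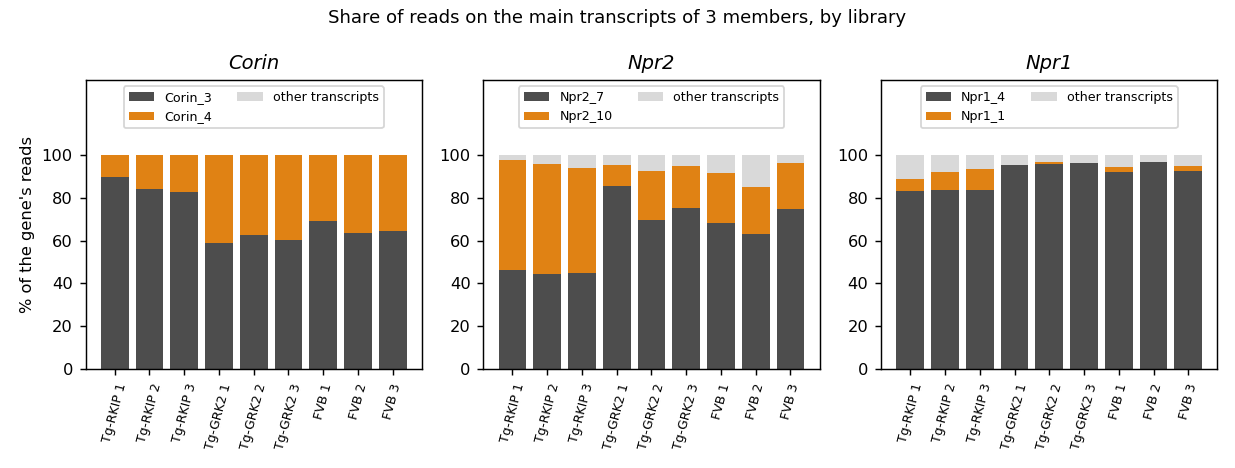
Share of the reads of Corin, Npr2 and Npr1 (%) on their main transcripts in each of the 9 libraries, with all remaining transcripts in light grey. Corin_4 takes 14.5% of Corin reads on average in Tg-RKIP and 34.1% in FVB, and Npr2_10 takes 50.5% of Npr2 reads in Tg-RKIP and 22.1% in FVB.

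Furin, the convertase that cuts the BNP precursor, changed little. It was at 34.3, 32.6 and 32.4 TPM in Tg-RKIP, 30.7, 31.4 and 29.4 in the Tg-GRK2-labelled libraries and 28.1, 28.0 and 29.9 in FVB. The Tg-RKIP libraries were highest in TPM. On TMM-normalized counts Furin was lower by 0.22 on the log2 scale (log2 fold change -0.22, SE 0.031, adjusted p = 1.82e-06), but it was higher by 0.16 with library size alone and by 0.21 with log2(TPM + 0.1). Relative to the median gene, its change was -0.23 and -0.22 under these scalings. The ratio of Corin to Furin, which is free of scaling, was 1.56 ± 0.040 in Tg-RKIP, 2.79 ± 0.073 in the Tg-GRK2-labelled libraries and 3.00 ± 0.133 in FVB, with no overlap between Tg-RKIP and FVB (exact permutation p = 0.1, the smallest possible).

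Among the other proprotein convertases, 6 of 8 were tested, 3 were called higher and 2 lower in Tg-RKIP. Pcsk5, which can share substrates with furin, rose from 0.980 ± 0.124 to 2.86 ± 0.172 TPM (log2 fold change 1.18, SE 0.101, adjusted p = 7.83e-10). Pcsk6, the convertase known to activate corin, was at 25.4 ± 0.254 TPM in FVB and 38.7 ± 0.069 in Tg-RKIP and rose by 0.17 on TMM-normalized counts (SE 0.029, adjusted p = 2.01e-05). It also rose in the Tg-GRK2-labelled libraries (0.23, SE 0.030, adjusted p = 4.5e-06). Pcsk7 had a log2 fold change of -0.36 in Tg-RKIP (adjusted p = 5.58e-06) but 0.02 with library size alone, and the call of Mbtps1 (-0.08, adjusted p = 0.0388) likewise turned direction (0.29).

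The order of the receptors by TPM summed over their transcripts was the same in the 3 groups. Npr2 was above Npr3 and Npr3 above Npr1 in each, and neighbours in this order did not overlap within a group. This order did not hold on single transcripts. Npr3_3, which carried most reads of Npr3, had a higher mean than the full-length Npr2_7 and Npr1_4 in each group. In Tg-RKIP Npr3_3 was at 26.7 ± 0.539 TPM, Npr1_4 at 10.98 ± 0.502 and Npr2_7 at 9.70 ± 0.190. In FVB Npr3_3 was at 17.3 ± 0.276 TPM, Npr2_7 at 12.3 ± 1.13 and Npr1_4 at 7.54 ± 0.361. The Tg-GRK2-labelled libraries had the same transcript order as FVB. Npr1, the cyclase receptor of ANP and BNP, was at 23.4, 21.3 and 20.5 TPM in Tg-RKIP, 10.7, 9.68 and 9.74 in the Tg-GRK2-labelled libraries and 10.3, 9.18 and 10.8 in FVB. The Tg-RKIP libraries lay above all others, by more in TPM than in counts. Npr1 rose by 0.30 on TMM-normalized counts (SE 0.048, adjusted p = 9.75e-06) and by 1.10 with log2(TPM + 0.1), and the share of its reads on the full-length Npr1_4 was 83.2% ± 0.30 in Tg-RKIP and 93.8% ± 2.59 in FVB. On the most abundant transcript of each gene alone, the log2 fold change of Npr1 was 0.09 and was not called (adjusted p = 0.242).

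Npr3, the clearance receptor, was at 30.2, 29.5 and 28.6 TPM in Tg-RKIP, 19.8, 20.1 and 19.2 in the Tg-GRK2-labelled libraries and 20.8, 20.6 and 20.4 in FVB. The 3 groups did not overlap, with Tg-RKIP highest and the Tg-GRK2-labelled libraries lowest. Npr3 rose by 0.15 on TMM-normalized counts (SE 0.025, adjusted p = 1.36e-05), was higher under every scaling run, and was higher by 0.08 relative to the median gene in log2(TPM + 0.1).

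Npr2, the CNP receptor, was at 30.9, 31.2 and 30.9 TPM in Tg-RKIP, 21.1, 26.0 and 25.3 in the Tg-GRK2-labelled libraries and 22.0, 24.1 and 22.4 in FVB. The Tg-RKIP libraries were highest in TPM, and lowest in TMM-normalized counts, with a log2 fold change of -0.16 (SE 0.035, adjusted p = 0.000353). With library size alone it was 0.22, and relative to the median gene -0.17, while in log2(TPM + 0.1) it was 0.44, and 0.01 relative to the median gene. On the most abundant transcript alone the log2 fold change of Npr2 was -0.80 (adjusted p = 3.62e-05). By transcript, the short Npr2_10 went from 6.90 ± 0.212 to 18.9 ± 0.706 TPM, while the full-length Npr2_7 went from 12.3 ± 1.13 to 9.70 ± 0.190 TPM.

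The ratio of Npr1 to Npr3 in TPM was 0.737 ± 0.032 in Tg-RKIP, 0.510 ± 0.030 in the Tg-GRK2-labelled libraries and 0.490 ± 0.042 in FVB, a log2 difference of 0.59 between Tg-RKIP and FVB with no overlap (exact permutation p = 0.1, the smallest possible). On the most abundant transcripts alone the difference turned to -0.08. The ratio of Npr2 to Npr3 overlapped between Tg-RKIP and FVB (1.05 ± 0.029 against 1.11 ± 0.059, exact permutation p = 0.3).

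**Figure D4:**
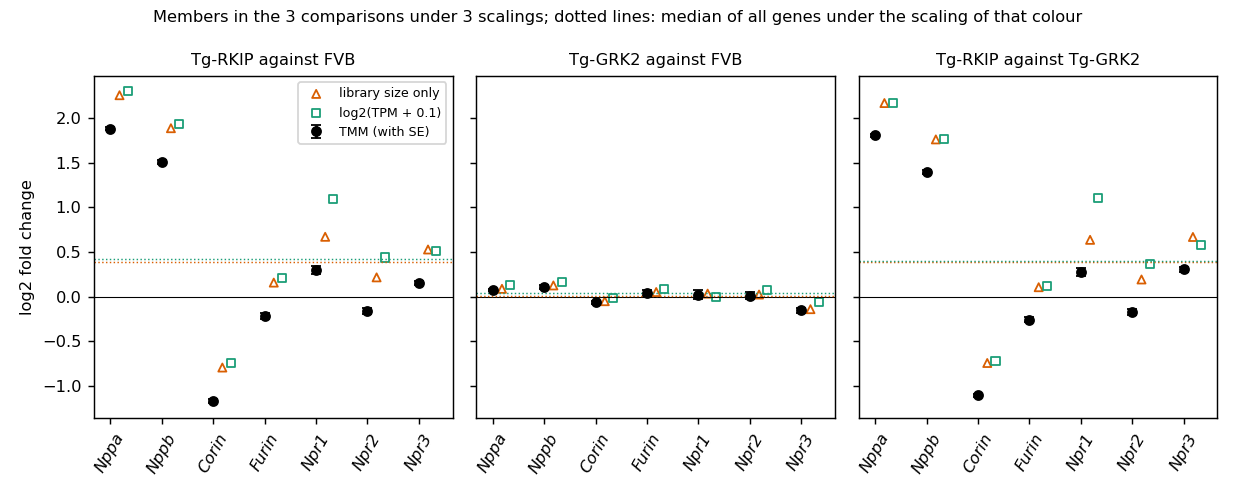
Log2 fold change of the 7 members tested in the 3 comparisons, with TMM (filled circles, SE bars), library size only (triangles) and log2(TPM + 0.1) (squares); dotted lines mark the median of all genes under the scaling of that colour. Nppa and Nppb lie above and Corin below 0 in Tg-RKIP under each scaling, Npr2 and Furin change side, and in the Tg-GRK2-labelled libraries all values lie between -0.15 and 0.16.

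Receptor genes are also expressed outside cardiomyocytes, Npr1 and Npr3 in endothelial and endocardial cells and Npr3 in fibroblasts and fat. Of 8 fibroblast markers, 8 were called higher in Tg-RKIP (median log2 fold change 0.89, summed level 3970 to 3998 TPM against 1827 to 1849 in FVB), with Col1a1 up by 2.55 and Tcf21 by 1.18. Of 11 endothelial and endocardial markers, 6 were called higher and 4 lower (median 0.09, 740 to 762 TPM against 390 to 393), with Plvap up by 1.87 and Kdr down (log2 fold change -0.83). With library size alone 8 of these markers were called higher and 3 lower. Of 8 adipocyte markers, 7 were called higher and 1 lower (median 2.64, 218 to 224 TPM against 72.1 to 73.3). Macrophage markers counted 7 higher and 1 lower of 8, and mural markers 4 and 4 of 8. Of 9 cartilage markers 8 were tested and 7 called higher, with a summed level of 340 to 348 TPM in Tg-RKIP and 15.4 to 16.0 in FVB. Of 8 lung and airway markers 5 (Scgb1a1, Scgb3a2, Bpifa1, Sftpa1 and Sftpc) had 0 reads in each FVB library, and the summed level was 85.3 to 90.7 TPM in Tg-RKIP, 181 to 191 in the Tg-GRK2-labelled libraries and 0.051 to 0.118 in FVB. The part of these cells in the changes of the receptors was not tested.

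Genes that degrade the peptides went both ways in Tg-RKIP. Of 8 on this list 5 were tested, 2 were called higher and 3 lower. Mme, which codes for neprilysin, the main peptidase of circulating ANP, fell from 6.71 ± 0.367 TPM in FVB to 2.24 ± 0.052 in Tg-RKIP (log2 fold change -1.63, SE 0.057, adjusted p = 1.04e-16), 3.10-fold lower, and was at 8.47 ± 0.440 TPM in the Tg-GRK2-labelled libraries, where it rose by 0.28 (SE 0.047, adjusted p = 0.000115). Ide, the insulin-degrading enzyme, which also cleaves ANP, fell by 0.50 in Tg-RKIP (SE 0.026, adjusted p = 1.67e-13). Both were lower in Tg-RKIP under each scaling. Ece1, an endothelin-converting peptidase, rose by 0.43 (SE 0.028, adjusted p = 8.01e-12), and Dpp4, which trims BNP, had -0.20 (adjusted p = 0.0254) but 0.17 with library size alone. Ece2, named after its values were seen, had at most 6 reads in an FVB library and a mean of 59.0 in Tg-RKIP. It was also called higher than in FVB in the Tg-GRK2-labelled libraries (log2 fold change 3.61). Between Tg-RKIP and those libraries it was not called.

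Downstream of the receptors, 17 genes of cGMP signalling were tested, of which 6 were called higher and 5 lower in Tg-RKIP (median log2 fold change -0.03). With library size alone 9 were called higher and 3 lower (median 0.34). Relative to the median gene, the list median was -0.04 under both scalings. The phosphodiesterases, which break down cyclic nucleotides, were split: Pde1b rose by 1.44 (SE 0.129, adjusted p = 1.65e-09) and Pde3b by 1.03 (SE 0.057, adjusted p = 4.02e-13), while Pde1c, a PDE1 of cardiomyocytes, fell by 1.30 (SE 0.035, adjusted p = 8.89e-19). Vasp, a target of the cGMP kinase at the actin skeleton, rose by 0.79 (SE 0.038, adjusted p = 3.58e-14). These 4 kept their direction under each scaling. The kinase gene Prkg1 itself had a log2 fold change of -0.13 (adjusted p = 0.0166) with TMM and 0.24 with library size alone. Pde5a and Pde9a, whose products are specific for cGMP, were not called (0.12, adjusted p = 0.175, and -0.19, adjusted p = 0.526). Among other guanylyl cyclases, 4 of 8 were tested, of which 1 was called higher and 2 lower (median log2 fold change -0.58). Gucy1b1, a subunit of the cyclase that nitric oxide activates, rose by 0.15 (SE 0.040, adjusted p = 0.00253). Gucy1a2, another subunit of that cyclase, fell by 1.23 (SE 0.247, adjusted p = 0.000137), on a mean of 19.0 reads in Tg-RKIP and 34.7 in FVB. Gucy2e, a guanylyl cyclase known from the retina, was called lower (adjusted p = 7.62e-07), on 1.00 and 15.3 reads.

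**Figure D5:**
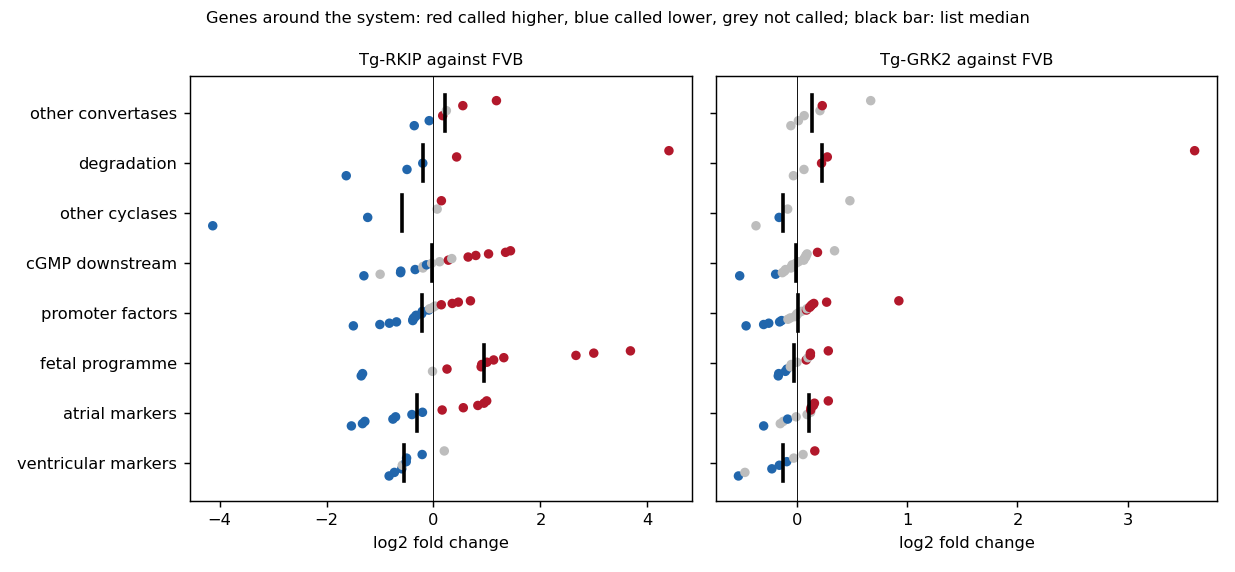
Log2 fold change of the tested genes of 8 lists around the system in Tg-RKIP and in the Tg-GRK2-labelled libraries against FVB (points; red called higher, blue called lower, grey not called) with the list median (black bar). The fetal programme has a median of 0.95 in Tg-RKIP and -0.02 in the Tg-GRK2-labelled libraries.

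In the Tg-GRK2-labelled libraries, in which Grk2 itself was not called higher, the members stayed close to FVB. Of the 7 tested, 2 were called higher, 2 lower and 3 not called, and 24.5% of all genes were called (12.2% higher and 12.2% lower). Nppa was at 4253 ± 10.5 TPM and rose by 0.08 on the log2 scale (SE 0.014, adjusted p = 0.000384), 1.05-fold. Nppb was at 461 ± 12.0 TPM and rose by 0.11 (SE 0.022, adjusted p = 0.000537), 1.08-fold. Both were called higher under each scaling. Without replicate 1 of these libraries, the counts of members called were also 2 and 2, with log2 fold changes of 0.07 for Nppa, 0.12 for Nppb, -0.16 for Npr3 and -0.06 for Corin.

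Npr3 fell by 0.15 in these libraries (SE 0.026, adjusted p = 0.000161) and Corin by 0.06 (SE 0.018, adjusted p = 0.0127). In log2(TPM + 0.1) neither was called (-0.06, adjusted p = 0.237, and -0.01, adjusted p = 0.708). Corin was not called with DESeq2 either (-0.05, adjusted p = 0.0834). Npr1 (0.02, adjusted p = 0.806), Npr2 (0.01, adjusted p = 0.858) and Furin (0.04, adjusted p = 0.399) were not called. Of the member transcripts 0 of 15 were called against their gene by edgeR, where 0.601% of all were.

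Among the genes around the system, Rgs2, a brake on Gq signalling that the cGMP kinase activates, fell in both transgenic groups against FVB, by 0.62 in Tg-RKIP (SE 0.035, adjusted p = 6.07e-13) and by 0.52 in the Tg-GRK2-labelled libraries (SE 0.036, adjusted p = 4.16e-10). These comparisons share the FVB libraries. In the Tg-GRK2-labelled libraries, the immediate early factor Egr1 rose by 0.93 (SE 0.055, adjusted p = 3.81e-11), and 7 of the 20 promoter factors were called higher and 5 lower.

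Set directly against the Tg-GRK2-labelled libraries, Tg-RKIP differed in all 7 members tested, 4 higher and 3 lower, where 74.5% of all genes were called (37.9% higher and 36.6% lower). Changes of at least 1 on the log2 scale, as in Nppa, Nppb and Corin, were called higher in 9.89% of genes and lower in 6.91%. Nppa was higher by 1.81 (SE 0.015, adjusted p = 8.31e-28), Nppb by 1.40 (SE 0.021, adjusted p = 4.82e-23), Npr3 by 0.31 (SE 0.026, adjusted p = 4.45e-10) and Npr1 by 0.27 (SE 0.047, adjusted p = 2.05e-05). On the most abundant transcript alone Npr1 was not called (0.02, adjusted p = 0.748). Corin was lower, with a log2 fold change of -1.11 (SE 0.019, adjusted p = 2.48e-22). Furin (-0.26, adjusted p = 1.3e-07) and Npr2 (-0.17, adjusted p = 0.000147) were lower with TMM and higher with library size alone (0.11 and 0.19). Of the 15 member transcripts 6 were called, where 10.4% of all were.

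The genes whose profile over the 9 libraries came closest to that of Nppa, by the root-mean-square distance of centred log2 counts among 11352 genes with at least 100 reads on average, were Acp5 (0.05), Plvap (0.05), Sfrp1 (0.05), Gpx3 (0.05) and Bgn (0.06). Closest to Nppb were Igfbp7 (0.03), Itgb5 (0.04), Sparc (0.05), Aebp1 (0.05) and Prelp (0.05). Nppb ranked 111th by likeness to Nppa and Nppa 238th by likeness to Nppb, at a distance of 0.19, and the libraries share their scaling and their groups, so that the distances are descriptions.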

How the data were processed

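The cardiac transcriptome was determined in 9 libraries from hearts of Tg-RKIP, Tg-GRK2 and FVB mice (n = 3 each) by random-primed single-read sequencing. The authors deposited read counts per transcript, as whole numbers without normalization, for 127558 Ensembl transcripts, and TPM per transcript. These TPM values equal those recomputed from counts and transcript lengths to within 5.5e-06. The submitters' processing notes name the build GRCm39. Aligner, counting program, strand setting and the division of shared reads are not given in the sources used here. The labels give each sample's group and replicate number. Total reads per library were 25458108 to 33447654, and intervals from counting cover counting error only.

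Reads and TPM were summed by gene name. The main test on counts was that of edgeR 4.0.16 under R 4.3.3 (TMM, filterByExpr, glmQLFit and glmQLFTest, 9 libraries, group means), with Benjamini-Hochberg adjustment over 15504 genes and a threshold of 0.05. Within-library ratios were compared by exact two-sided permutation tests. Transcripts were tested against their gene with diffSpliceDGE. The code was tested on simulated data. Alternatives were other scalings, DESeq2 1.42.0, other filters, the replicate number as a block, the groups compared alone, each library left out in turn, limma 3.58.1 on log2(TPM + 0.1) and log2(TPM + 1) with and without a filter of 1 TPM in 3 libraries, a minimum fold of 1.5 and the most abundant transcript alone.

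The genes named are the 8 members, per list up to 4 called genes with the largest change and a mean of at least 100 reads in the higher group, tested genes within 100 kb of Nppa or Nppb (1 of them is not reported here), the 5 genes closest to each in profile, markers at 0 reads in every library of a group, and Pebp1 and Grk2. Pde5a, Pde9a, Prkg1, Pam, Myl4, Nfatc4, Nkx2-5, Gucy1a2, Gucy2e, Plin4 and Ece2 fall outside this rule and were named after their values had been seen. The members and lists were chosen with earlier results of these data known. No library pair was identical, and pairs within a group differed by 1.37 to 1.53 times the sampling noise (median over genes; chi-square per degree of freedom 1.74 to 27.3). Sequences were matched to GENCODE M21 by transcript identifier and length, for 4 of 4 transcripts shown, and to RefSeq (GRCm38.p6) by symbol, for 2 of 2 promoters shown.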

Additional observations from a re-analysis of the deposited data

Results flagged for a closer look

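Npr3, the clearance receptor, moved in opposite directions against FVB in the transgenic groups on TMM-normalized counts. The log2 difference from FVB was 0.15 in Tg-RKIP (SE 0.025, adjusted p = 1.36e-05) and -0.15 in the Tg-GRK2-labelled libraries (SE 0.026, adjusted p = 0.000161), and the direct difference between these groups was 0.31 (SE 0.026, adjusted p = 4.45e-10, edgeR's quasi-likelihood test). In log2(TPM + 0.1) and log2(TPM + 1) Npr3 was not called in the Tg-GRK2-labelled libraries against FVB (-0.06, adjusted p = 0.237 and 0.244, limma). Both comparisons share the FVB libraries. The groups of 3 libraries were too small for a search for single outlying libraries.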

How the results depend on the processing

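Nppa and Nppb stayed called higher and Corin lower in Tg-RKIP against either other group under each alternative run. The count of members called lower in Tg-RKIP against FVB, 3 with TMM, was 1 with library size only, with library size without mitochondrial genes, with limma on log2(TPM + 0.1) with or without the filter and on log2(TPM + 1), and when a fold of at least 1.5 was tested. Against the Tg-GRK2-labelled libraries it was 1 under the same settings other than library size without mitochondrial genes. The counts called higher, 4 in both comparisons, were 2 with the minimum fold, 6 with library size only and the 3 limma settings, where Npr2 and Furin were called higher, and 3 on the most abundant transcripts, where Npr1 was not called. In the Tg-GRK2-labelled libraries against FVB, the 2 members higher became 0 with the minimum fold, and the 2 lower became 1 with library size only and with DESeq2 and 0 with the 3 limma settings and the minimum fold.

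Npr2 and Furin reversed. The log2 fold change of Npr2 in Tg-RKIP against FVB was 0.22 with library size only, 0.017 without mitochondrial genes, 0.44 on log2(TPM + 0.1), with or without the filter, and 0.42 on log2(TPM + 1). Against the Tg-GRK2-labelled libraries it was 0.19, 0.0024, 0.36 and 0.35. Furin in Tg-RKIP against FVB was 0.16 with library size only, 0.21 on log2(TPM + 0.1) and 0.20 on log2(TPM + 1), and against the Tg-GRK2-labelled libraries 0.11, 0.12 and 0.11. These settings move the median gene in the same direction, as given in the report. The log2 difference in Npr1/Npr3 was -0.083 against FVB and -0.30 against the Tg-GRK2-labelled libraries on the most abundant transcripts, and -0.031 against the latter on counts. The cause was not tested.

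When single libraries were left out, the counts of members called higher and lower stayed at 4 and 3 in Tg-RKIP against both groups and at 2 and 2 in the Tg-GRK2-labelled libraries. Correlations of the deviations of same-numbered libraries of different groups were small (-0.01 to 0.06, against -0.06 to 0.02 for other numbers). Of the 9 libraries, 1 was closest to its own number in both other groups. Each Tg-RKIP library was closest to the Tg-GRK2-labelled library of its number (0.04, 0.06 and 0.02). These values do not settle whether the numbers pair samples. With the replicate number as a block, all genes called in Tg-RKIP against FVB were 5666 higher and 5735 lower, against 5709 and 5751 without it, and no call of a member changed. Over all genes, the calls higher and lower there were 9709 and 2650 with library size only (9606 and 2851 against the Tg-GRK2-labelled libraries, where TMM gave 5874 and 5677), 7585 and 4131 without mitochondrial genes, 8932 and 1964 on log2(TPM + 0.1) (8536 and 2296), and 1975 and 1690 with the minimum fold (2033 and 1834). In the Tg-GRK2-labelled libraries against FVB, with 1895 and 1898 by TMM, they were 1467 and 1206 with DESeq2, 1772 and 815 on log2(TPM + 0.1), 82 and 73 with the minimum fold and 837 and 828 on the most abundant transcripts. Depth limits Nppc, which stayed under 5 reads in each library.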

Other observations

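In the Tg-GRK2-labelled libraries, the fetal programme without the peptides had no common direction, with 4 of 12 genes called higher and 4 lower against FVB. Xirp2, which codes for an actin-binding protein of the intercalated disc, rose by 0.29 on the log2 scale (SE 0.017, adjusted p = 3.1e-11) and Myh6 by 0.12 (SE 0.010, adjusted p = 2.35e-09), while Ankrd1, a stretch-responsive titin partner, fell by 0.17 (SE 0.013, adjusted p = 2.84e-09). In Tg-RKIP, Ankrd1 was at 6778 TPM, against 2328 TPM in FVB. These TPM values do not compare directly with the TMM changes given here. In log2(TPM + 0.1) the median gene was higher by 0.43 in Tg-RKIP than in FVB. Of 8 adipocyte markers, 5 were called higher and 1 lower (Plin4, -0.08) in the Tg-GRK2-labelled libraries, with Ucp1, the uncoupling protein of brown fat, up by 2.28 (SE 0.139, adjusted p = 5.15e-11) and Lep, which codes for leptin, up by 1.49 (SE 0.172, adjusted p = 1.07e-06). All adjusted p are from edgeR's quasi-likelihood test.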
